A study of Homo sapiens with 6 samples.

Results

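Keratin pseudogenes are the genes whose symbol is a keratin number followed by P, such as KRT17P2. All symbols of this form were taken from the array table, which gave 124 pseudogenes of 81496 gene symbols, and every one of their 127 probe sets of 135750 transcript probe sets was kept. Each set was placed beside the set of its parent keratin, the gene named before the P. The symbols alone decided membership, but the group as a whole was chosen from the changes between the lines on these same arrays, so the changes below are a description and no p-value is given for any member or parent. Total RNA came from MCF10.AT1, an untreated and fluvastatin-sensitive line derived from MCF10A breast epithelial cells by transformation with HRAS (premalignant, although the labels give its cell type as breast cancer), and from MCF10.AT1-R, which had been selected from MCF10.AT1 by growth in fluvastatin that was raised stepwise between 1 and 20 µM. MCF10.AT1-R is a single selected line, its replicates are labelled biological, and whether fluvastatin was present at harvest is not given in the sources used here. The labels list 3 Clariom D arrays per line. Arrays A01 and A02 of MCF10.AT1 were compared with B02, B03 and B04 of MCF10.AT1-R, and A03 of MCF10.AT1, which the study had removed as an outlier, is shown apart.

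Keratins are the intermediate filament proteins of epithelial cells, and each filament pairs a type I with a type II keratin. KRT8 (type II) and KRT18 (type I) form the filaments of simple and luminal epithelium, KRT19 is a further luminal type I keratin, KRT5 and KRT14 are the pair of basal cells, and KRT6, KRT16 and KRT17 are known from wounded and hyperproliferative epithelium. A processed pseudogene is a reverse-transcribed copy of an mRNA inserted elsewhere in the genome, whereas a duplicated pseudogene is a copy of the gene itself. Either kind can stay close to the parent in sequence, and a short array probe can then bind the parent transcript as well as the pseudogene transcript, which is called cross-hybridization. Probe and pseudogene sequences were not used here, so RNA of a pseudogene and RNA of its parent cannot be told apart in the value of a single set.

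The values are log2 levels made by RMA, with 1 value per probe set and array, and a change is the mean of the 3 MCF10.AT1-R arrays minus the mean of the 2 MCF10.AT1 arrays on that scale. Sets differ in their probes, so levels of different sets are not compared as amounts of RNA. A level of 2.99 was taken as the limit of detection (the controls' 95th percentile on each array, averaged over 5 arrays), and 82 of the 127 sets had a mean above it while 32 were under it on all 5 arrays. The correlation of A03 with the other arrays was 0.779 to 0.795. All 7 basal breast epithelial markers examined, including KRT5, KRT14 and TP63, were above the limit on all 5 arrays, as were 5 of 6 luminal markers, and none of 4 melanocyte markers was above it on any. The summed level of the basal list, which holds KRT14 and KRT17, was 46.8 to 47.4 on the MCF10.AT1 arrays and 59.2 to 59.4 on the MCF10.AT1-R arrays. For the 6 luminal markers, which include KRT8, KRT18 and KRT19, the sum was 38.5 to 39.2 against 43.5 to 44.8. For 7 cornifying keratinocyte markers the sum was 22.1 to 22.2 against 27.3 to 29.8, with 3 of the 7 above the limit on all 5 arrays. For 6 fibroblast markers it was 27.0 to 27.7 against 24.8 to 25.6, with DCN the largest difference at -2.15, and CD14 led 4 leukocyte markers at -1.12. What part these shifts have in the keratin values was not tested, and a larger share of keratin-rich cells and more keratin RNA per cell cannot be told apart in bulk RNA.

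Keratin pseudogene sets were mostly higher in MCF10.AT1-R. Of the 127 sets, 114 were higher and 13 were lower by any amount, and the median change was 0.44 against 0.01 over all transcript sets. The 3 MCF10.AT1-R values exceeded both MCF10.AT1 values in 73 sets (57.5%), where 12.2% of all transcript sets did, and below both in 2 sets, KRT18P8 and KRT8P12, where 11.1% of all transcript sets did. In the limma fit over the 51457 sets that passed the filter on low and invariant sets, 103 of the 127 were tested. That fit gave every tested set the same SD of 0.34. A call thus rested on the size of the change alone, not on a set's own spread among arrays. At a false discovery rate of 5%, 10 rose and none fell by limma, with 0.758% of all tested sets called higher and 0.447% called lower. At an unadjusted p under 0.05 the counts were 42 higher and 0 lower. The share of all tested sets at this unadjusted threshold is not given here. The unadjusted counts of families and keratins below stand without that background as well. Nothing is read from these counts and shares, since the group was chosen from the same contrast. The 10 that rose were all pseudogenes of KRT16 or KRT17. Among them, KRT17P5 passed the filter on mean level (1.88) only through its MCF10.AT1-R arrays, since its MCF10.AT1 mean was 1.75. With A03 added back, 4 of the members were called, and with the trend option of limma 20 were. The calls over all tested sets moved as well, from 620 to 26 with A03 added back and to 1377 with the trend option.

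**Figure D1:**
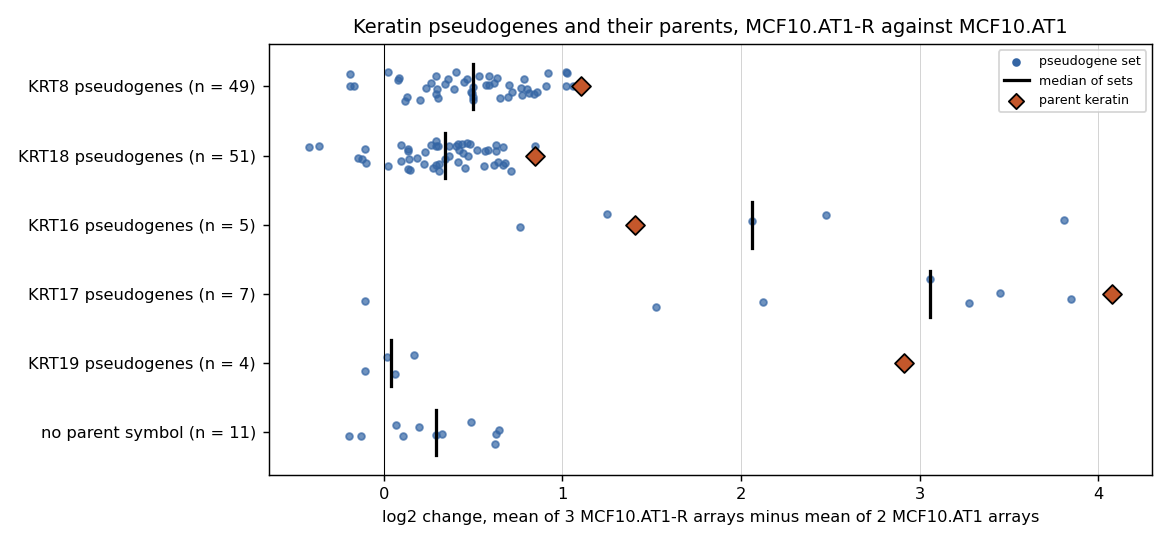
Change of every keratin pseudogene set (points) and of its parent keratin (diamonds) in log2 units, MCF10.AT1-R minus MCF10.AT1, with the family median as a bar; vertical scatter within a row has no meaning. The medians were 0.50 for KRT8, 0.34 for KRT18, 2.06 for KRT16, 3.06 for KRT17 and 0.04 for KRT19 pseudogenes, and the parent lay above its family's median in every family except KRT16.

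The parents were higher in MCF10.AT1-R as well. All 5 parent keratins had the 3 MCF10.AT1-R arrays above both MCF10.AT1 arrays, and 4 of them rose past the 5% threshold, KRT18 being the exception. KRT17 read 6.56 and 6.56 on A01 and A02 and 10.61, 10.57 and 10.73 on B02, B03 and B04, a change of 4.08. KRT19 read 6.08 and 6.02 against 9.05, 8.84 and 9.01, a change of 2.91. The other parents moved less. KRT16 read 6.95 and 6.84 against 8.22, 8.32 and 8.37, a change of 1.41. KRT8 read 8.34 and 8.53 against 9.51, 9.48 and 9.62, a change of 1.11. KRT18 read 9.71 and 9.89 against 10.58, 10.59 and 10.76, higher by 0.85. Neither KRT8 nor KRT16 passed when A01 was left out (changes of 1.01 and 1.46) or A02 (1.20 and 1.35), each leaving a single MCF10.AT1 array. KRT8 also did not pass without B02 (1.12) or B04 (1.06), without a filter on variance, or with quantile normalization repeated without A03. KRT16 passed in each of these latter settings. With A03 added back, KRT17 was the only parent that passed.

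The 7 KRT17 pseudogenes ranged most widely. KRT17 encodes a type I keratin of basal and stressed epithelium, and all 7 of its pseudogenes lie on chromosome 17. KRT17P2 read 5.62 and 5.65 in MCF10.AT1 and 9.41, 9.47 and 9.57 in MCF10.AT1-R, or 5.63 ± 0.02 (SD, n = 2) against 9.48 ± 0.08 (SD, n = 3), a rise of 3.85. KRT17P1 read 5.57 and 5.59 against 8.97, 9.04 and 9.09, a rise of 3.45. KRT17P6 read 4.94 and 5.08 against 8.17, 8.43 and 8.26, a rise of 3.28. In these sets the lines were separated by many times the spread among arrays of a line. KRT17P3 read 4.54 and 4.43 against 7.46, 7.48 and 7.68, a rise of 3.06. KRT17P7 read 3.10 and 3.07 against 5.38, 4.70 and 5.54, a rise of 2.12, with its MCF10.AT1 arrays just over the limit of detection.

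The remaining pair of the KRT17 family differed from these. KRT17P5 read 1.85 and 1.65 in MCF10.AT1, both under the limit of detection, and 3.45, 3.57 and 2.78 in MCF10.AT1-R, a rise of 1.52 whose size depends on values within the negative controls. With values under the limit raised to it, B02 and B03 alone carried the difference. KRT17P4 read 4.10 and 4.52 against 4.01, 4.04 and 4.57, so the lines overlapped, and its change of -0.11 was smaller than the SD within either line (0.30 and 0.31). None of the 7 exceeded the change of KRT17 itself. The call of KRT17P5 was lost without A02, where its change was 1.42, without a filter on variance, and with A03 added back (1.27).

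The 5 KRT16 pseudogenes were all higher in MCF10.AT1-R, and 4 of them rose past the threshold. KRT16 encodes the type I partner of KRT6, and these pseudogenes also lie on chromosome 17. KRT16P1 read 5.53 and 5.47 in MCF10.AT1 and 9.22, 9.39 and 9.30 in MCF10.AT1-R, or 5.50 ± 0.04 (SD, n = 2) against 9.31 ± 0.08 (SD, n = 3), a rise of 3.81. KRT16P3 read 4.75 and 4.77 against 7.35, 7.01 and 7.35, a rise of 2.47. KRT16P2 read 5.34 and 5.34 against 7.45, 7.53 and 7.22, a rise of 2.06. Each of these 3 exceeded the 1.41 of KRT16, the parent named by the symbol. The RefSeq annotation gives KRT14P as a synonym of KRT16P1, and KRT14, the type I keratin of basal cells, read 5.94 and 5.85 against 8.20, 8.08 and 8.52, a rise of 2.37. The change of KRT16P1 was thus larger than that of KRT16 and of KRT14 and lay nearer to the 4.08 of KRT17.

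KRT16P5 and KRT16P4 changed less than KRT16. KRT16P5 read 5.86 and 5.99 in MCF10.AT1 and 7.21, 7.29 and 7.03 in MCF10.AT1-R, a rise of 1.25. KRT16P4 read 6.50 and 6.59 against 7.32, 7.01 and 7.60, higher by 0.77 and not past the threshold. Neither had overlapping lines. KRT16P5 no longer passed without A01 (change of 1.18), without A02 (1.32), without a filter on variance, or with A03 added back (0.78). KRT16P4 passed with the trend option.

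**Figure D2:**
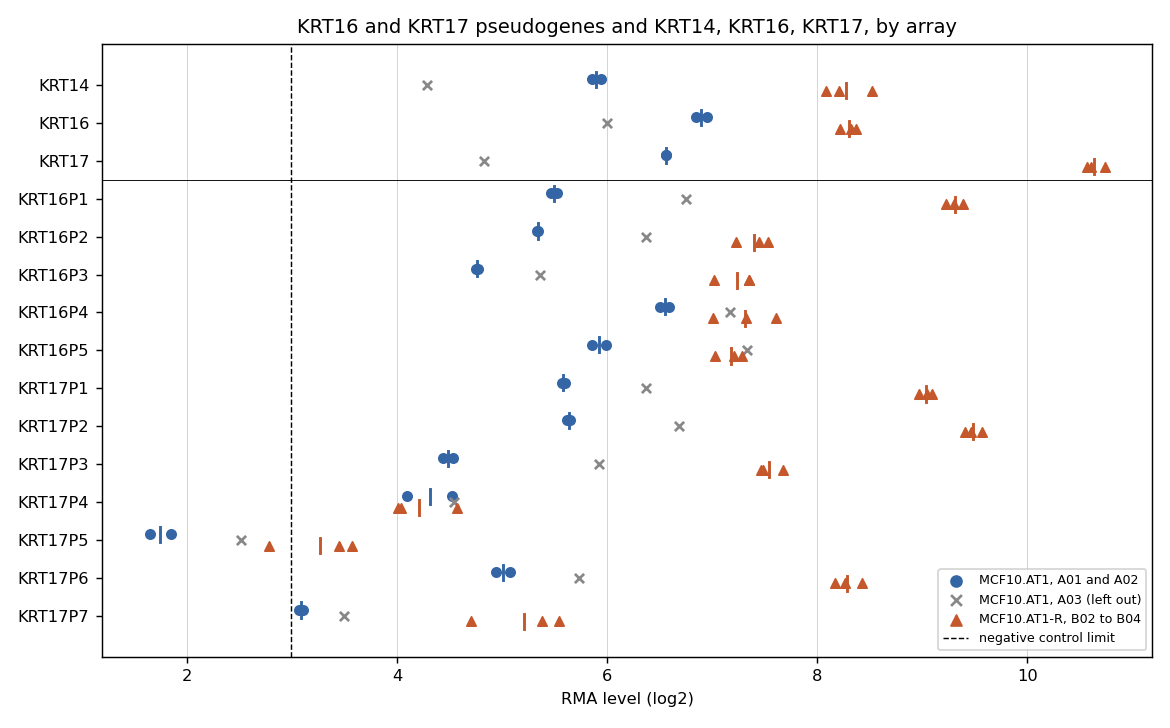
RMA level (log2) of KRT14, KRT16 and KRT17 and of their 12 KRT16 and KRT17 pseudogenes on every array: circles are A01 and A02, triangles B02 to B04, crosses A03, vertical ticks the means of each line, and the dashed line the limit of detection of 2.99. The lines do not overlap in 11 of the 12 pseudogenes, the exception being KRT17P4, and A03 lies above both other MCF10.AT1 arrays in all 12 pseudogenes and below them in the 3 keratins.

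All of these 12 pseudogenes except KRT17P3 fall into 3 short clusters of chromosome 17 in the gene order of RefSeq (GRCh38.p14), and the KRT17 gene is in none of the 3. By measured members, the first cluster runs KRT16P2, KRT17P1, KRT17P4, the second KRT17P5, KRT17P2, KRT16P1, KRT16P4, and the third KRT16P5, KRT16P3, KRT17P6, KRT17P7. RefSeq also places KRT16P6, which has no set in the array table, just before KRT16P2. KRT17P3 lies by itself elsewhere on the chromosome. RefSeq annotates KRT16P1, KRT16P2, KRT16P3, KRT17P1, KRT17P2 and KRT17P5 as transcribed pseudogenes, and these are 6 of the 10 members with that annotation. Each cluster held 1 KRT17 pseudogene with a rise over 3, beside 1 with less. KRT17P1, KRT17P2 and KRT17P6 rose by 3.45, 3.85 and 3.28, whereas KRT17P4, KRT17P5 and KRT17P7 changed by -0.11, 1.52 and 2.12. The KRT16 pseudogenes next to the former, KRT16P2, KRT16P1 and KRT16P3, rose by 2.06, 3.81 and 2.47.

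The genes that flank the clusters did not share these rises. SRP68P1 and COTL1P1 around the first cluster changed by -0.69 and 0.21, YWHAEP2 and TNPO1P2 around the second by 0.14 and -0.31, and YWHAEP3 and COTL1P2 around the third by 0.07 and -0.41. ALOX12P1 and SH3GL1P2, the nearest measured genes on each side of KRT17P3, changed by 0.13 and -0.04. All 8 are pseudogenes of other families, and their changes ran from -0.69 to 0.21. YWHAEP2 was among the brightest of these sets, with 9.40 and 9.37 on the MCF10.AT1 arrays and 9.60, 9.45 and 9.52 on the MCF10.AT1-R arrays.

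**Figure D3:**
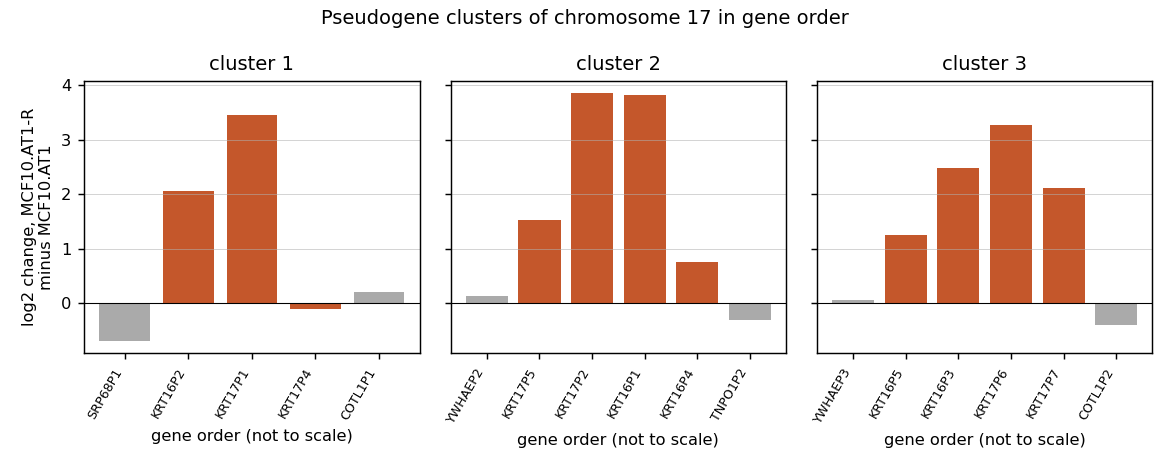
Change in log2 units, MCF10.AT1-R minus MCF10.AT1, of the measured genes in the 3 chromosome 17 clusters, drawn in RefSeq gene order and not to distance; keratin pseudogenes are orange and the flanking genes grey. The bars of the keratin pseudogenes range from -0.11 (KRT17P4) to 3.85 (KRT17P2), and those of the flanking genes from -0.69 to 0.21.

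The KRT8 pseudogenes were many, scattered over 17 chromosomes and moderately higher. Their 49 sets, of 48 genes, had a median change of 0.50 with a range of -0.19 to 1.06, against 1.11 for KRT8, and no set exceeded KRT8. Of the 49, 46 were higher, 35 had all MCF10.AT1-R arrays above both MCF10.AT1 arrays, and none of the 41 tested passed the 5% threshold of limma. At an unadjusted p under 0.05, 19 were higher and 0 lower, and the array weights brought KRT8P3, KRT8P7 and KRT8P10 past the threshold. With the trend option 6 passed, these 3 and KRT8P22, KRT8P36 and KRT8P40.

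The KRT8 pseudogene sets with the largest changes lay near the parent, at both high and low levels. KRT8P7, on chromosome 11, read 6.50 and 6.64 in MCF10.AT1 and 7.73, 7.58 and 7.49 in MCF10.AT1-R, higher by 1.03. KRT8P3 read 6.65 and 7.09 against 7.98, 7.69 and 8.00, higher by 1.02. KRT8P36 read 4.65 and 5.11 against 5.86, 5.90 and 5.64, higher by 0.92. The lines did not overlap in any of these 3 sets. KRT8P10, a dim set, had the largest KRT8 pseudogene change, 1.06, with 2.68 and 2.69 in MCF10.AT1, under the limit of detection, against 3.85, 3.85 and 3.53. Among the brighter sets, KRT8P33 was higher by 0.50. KRT8P30, at a level similar to KRT8P36, read 4.88 and 5.04 against 5.12, 5.04 and 5.09, higher by 0.12.

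The KRT18 pseudogenes gave the same picture on a smaller scale. Their 51 sets, of 49 genes on 20 chromosomes, had a median change of 0.34 with a range of -0.42 to 0.85, against 0.85 for KRT18. Of the 51, 45 were higher, 24 had all MCF10.AT1-R arrays above both MCF10.AT1 arrays, and none of the 38 tested passed the threshold of limma, with 9 higher and 0 lower at an unadjusted p under 0.05. With the trend option of limma, KRT18P16 and KRT18P53 passed.

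KRT18P16, on chromosome 5, changed as much as KRT18. It read 6.57 and 6.79 in MCF10.AT1 and 7.49, 7.51 and 7.59 in MCF10.AT1-R, higher by 0.85. KRT18P18, on chromosome 16, read 6.46 and 6.39 against 6.97, 7.13 and 6.94, higher by 0.59. KRT18P53 has a set whose identifier names chromosome X and another that names chromosome Y, and the pair held identical values on all arrays, 5.98 and 5.86 against 6.59, 6.64 and 6.51, higher by 0.67. Counting the pair once moved the median over all members from 0.44 to 0.43. The lines did not overlap in these sets. KRT18P41 and KRT18P8 had the largest falls in value of any member with a mean above the limit of detection, -0.42 and -0.36, but the KRT18P41 arrays overlapped (3.80 and 2.97 against 3.01, 3.18 and 2.71) and neither passed the threshold. KRT18P24 has 2 sets with different values, which were higher by 0.47 and 0.64.

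In both families the median change was larger in bands of higher mean level, a level that includes the MCF10.AT1-R arrays themselves. Among KRT8 pseudogenes the median change was 0.29 in the 17 sets under the limit of detection, 0.57 in the 12 from there to a level of 4, 0.68 in the 10 from 4 to 5 and 0.69 in the 10 above 5. Among KRT18 pseudogenes the corresponding medians were 0.23 (17 sets), 0.39 (16), 0.44 (8) and 0.60 (10). With bands set by the MCF10.AT1 arrays alone, an alternative chosen after seeing the data, the KRT8 medians were 0.34 (19 sets), 0.69 (13), 0.58 (14) and 1.02 (3), no longer in order, and the KRT18 medians were 0.28 (19), 0.33 (16), 0.47 (7) and 0.61 (9). Both medians above 5 by the mean of 5 arrays were smaller than the changes of the parents, 1.11 and 0.85. Sets of a family share sequence and are not independent, and these medians carry no test. With values under the limit raised to it the median over all 127 sets was 0.30 in place of 0.44.

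**Figure D4:**
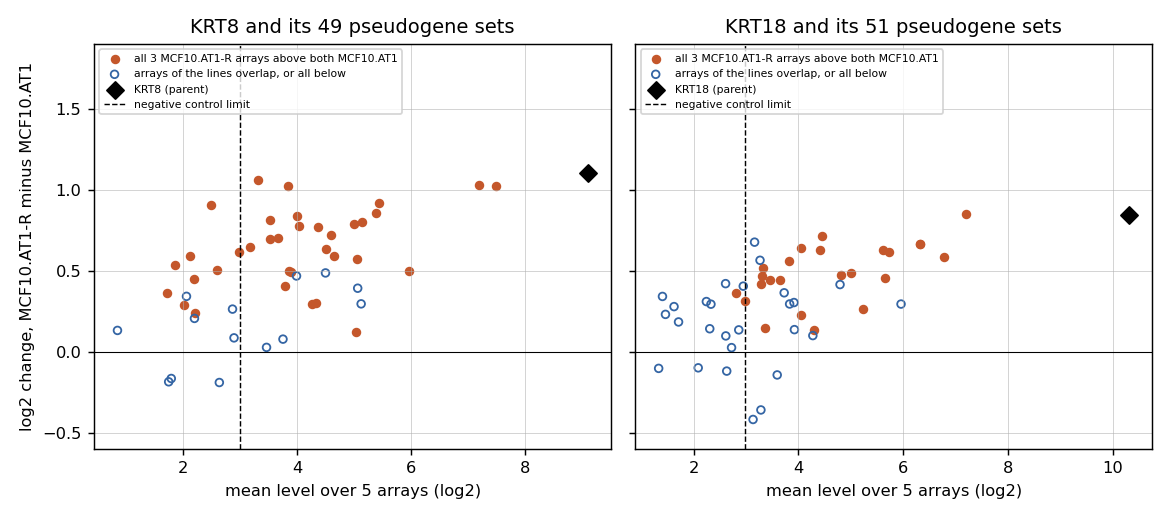
Change (log2 units, MCF10.AT1-R minus MCF10.AT1) against the mean level over 5 arrays (log2) for the pseudogene sets of KRT8 and of KRT18. Filled points have all 3 MCF10.AT1-R arrays above both MCF10.AT1 arrays, 35 of 49 and 24 of 51 sets, of which 9 and 2 lie left of the limit of detection of 2.99 (dashed line); diamonds are KRT8 and KRT18, at 1.11 and 0.85.

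The genes next to the KRT8 and KRT18 pseudogenes had median changes near 0 and a range of -1.76 to 3.71. Over the nearest measured genes outside the keratin pseudogenes on each side, 96 for KRT8 and 98 for KRT18 pseudogenes, the median changes were -0.01 and 0.04. The 3 MCF10.AT1-R values exceeded both MCF10.AT1 values in 16.0% of the 194 neighbours, and in 59 of the 100 pseudogene sets.

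The KRT19 pseudogenes stood apart from their parent. KRT19, a luminal type I keratin, rose by 2.91, while its 4 pseudogenes had changes from -0.10 to 0.17 with a median of 0.04. None of the 4 sets had a mean above the limit of detection, and 3 were under it on all 5 arrays. KRT19P6, the brightest, read 3.02 and 2.23 in MCF10.AT1 and 2.36, 2.65 and 2.55 in MCF10.AT1-R, so the lines overlapped. At this level a change of these sets was not measurable.

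The 11 pseudogenes with no parent of the same number had a median change of 0.29, with a range of -0.19 to 0.64. They include KRT42P, KRT87P and KRT90P, which lie among the functional keratin genes of chromosomes 17 and 12. None passed the threshold of limma, and 3 were higher and 0 lower at an unadjusted p under 0.05. KRT87P read 3.08 and 3.51 in MCF10.AT1 and 3.96, 3.94 and 3.89 in MCF10.AT1-R, higher by 0.63. KRT42P, which lies next to KRT17 in the annotation, read 3.65 and 3.94 against 3.85, 3.52 and 4.21. The arrays of KRT42P overlapped, with a difference of 0.07 beside the 4.08 of KRT17. KRT90P, the last set above the limit of detection (mean level of 2.992), and KRT8P25, the first under it (2.990), were both higher by 0.62.

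The 30 sets with the highest level were 9 sets of KRT16 or KRT17, 11 of KRT8 and 10 of KRT18 pseudogenes. That level is a mean over 5 arrays that includes the 3 of MCF10.AT1-R, which favours sets higher in that line. The change was positive in all 30, with a median of 0.78. In 27 of them the MCF10.AT1-R arrays all lay above both MCF10.AT1 arrays. Of 33612 other transcript sets at mean levels of 2.99 to 7.94, a wider range, 16259 were higher and 14.4% were separated in this way. The 5 largest changes were those of KRT17P2, KRT16P1, KRT17P1, KRT17P6 and KRT17P3. The 5 smallest belonged to KRT8P30 (0.12), KRT18P56 (0.27), KRT18P68 (0.29), KRT8P14 (0.30) and KRT8P32 (0.39). With A03 added back, KRT8P30, KRT18P56 and KRT18P68 turned to -0.12, -0.07 and -0.05.

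The functional keratins were compared as a list of 54 genes with 55 sets. Their median change was 0.37, 43 sets were higher and 12 lower, and 11 of the 45 tested rose past the threshold while none fell by limma, with 17 higher and 2 lower at an unadjusted p under 0.05. The number that rose was 1 (KRT17) with A03 added back, 16 with the trend option, 8 without a filter, and 7 without A01 or without A02. Beside KRT8, KRT14, KRT16, KRT17 and KRT19, those that rose were KRT5 (1.71), KRT6A (1.73), KRT6B (1.85), KRT6C (1.95), KRT1 (1.10) and KRT23 (1.11). KRT5 is the type II partner of KRT14, KRT6A to KRT6C are the type II partners of KRT16 and KRT17, and KRT1 marks differentiating keratinocytes. KRT1 and KRT23 did not pass without a filter on variance. KRT1 also failed with any 1 array left out (changes of 1.03 to 1.18), and KRT23 failed without A01 (0.87), A02 (1.35), B03 (0.92) or B04 (1.13). None of these 6 has a member pseudogene by symbol, so no pseudogene value stands beside them.

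Keratin pseudogenes were set beside pseudogenes of other genes by the share that had the sign of the parent's change. Of the 116 keratin sets with a parent, 105 (90.5%) changed in its direction. All 5 parents were higher, so this share only restates how many of the 116 sets were higher. Of the 116, 27 were under the limit of detection on all 5 arrays. Of 4888 sets of other pseudogenes named after 1463 coding genes, 2735 (56.0%) did so, and their parents had a median change of -0.0010. Where such a parent was higher by 1 or more, 34 of 43 sets of 10 parents (79.1%) followed, and where it was lower by 1 or more, 15 of 26 sets of 10 parents (57.7%) did. The sets of a parent share sequence and their counts carry no test.

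In some families outside the keratins, single pseudogenes had changes near or in the direction of the parent's while others did not. FTL, the ferritin light chain, was lower by 1.06 (change of -1.06), and its brightest pseudogenes FTLP2 and FTLP3 had changes of -1.13 and -1.05, whereas the median over 16 FTL pseudogene sets was -0.16. HMGB3, a chromatin protein, had a change of 1.46 beside a median of 0.32 over 28 pseudogene sets, with a range of -0.38 to 1.53. CD24, a surface protein, had a change of 3.59, CD24P4 had one of 2.58 and CD24P2 one of 0.01.

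On array A03 parents mostly read lower and pseudogene sets mostly higher, in the keratins and in other families. On A03, 102 of the 127 keratin pseudogene sets were higher than on both other MCF10.AT1 arrays (80.3%), where 57.8% of all transcript sets and 73.7% of the other pseudogene sets were. The median difference of A03 from the mean of A01 and A02 was 0.62 over the members. The 5 parents were all lower on A03: KRT18 by -4.88, KRT8 by -2.96, KRT17 by -1.73, KRT19 by -1.63 and KRT16 by -0.90. Lower values on A03 were not particular to parents. Of the 55 sets of functional keratins, 40 were lower on A03 than on both A01 and A02, and 7 were higher. KRT5 and KRT15, which have no member pseudogene, differed by -4.90 and -5.26.

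In 93 of 96 other pseudogene families with 10 or more sets, the parent was likewise lower on A03 than the mean of A01 and A02 and the median of its pseudogene sets higher. The keratin family medians were positive on A03 beside these lower parents. The KRT18 pseudogene sets had a median difference of 0.65 on A03 and the KRT8 sets one of 0.57, while KRT18 read 4.92 on A03 against 9.71 and 9.89, and KRT8 read 5.47 against 8.34 and 8.53. The KRT16 and KRT17 pseudogenes had medians of 1.03 and 0.76, and 9 of these 12 lay on A03 between the MCF10.AT1 and the MCF10.AT1-R arrays. KRT16P1 read 6.75 and KRT17P2 read 6.68 on A03. In the pooled comparison with A03 included among the MCF10.AT1 arrays, the share of members with the direction of the parent was 76.7% and the median change was 0.24.

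**Figure D5:**
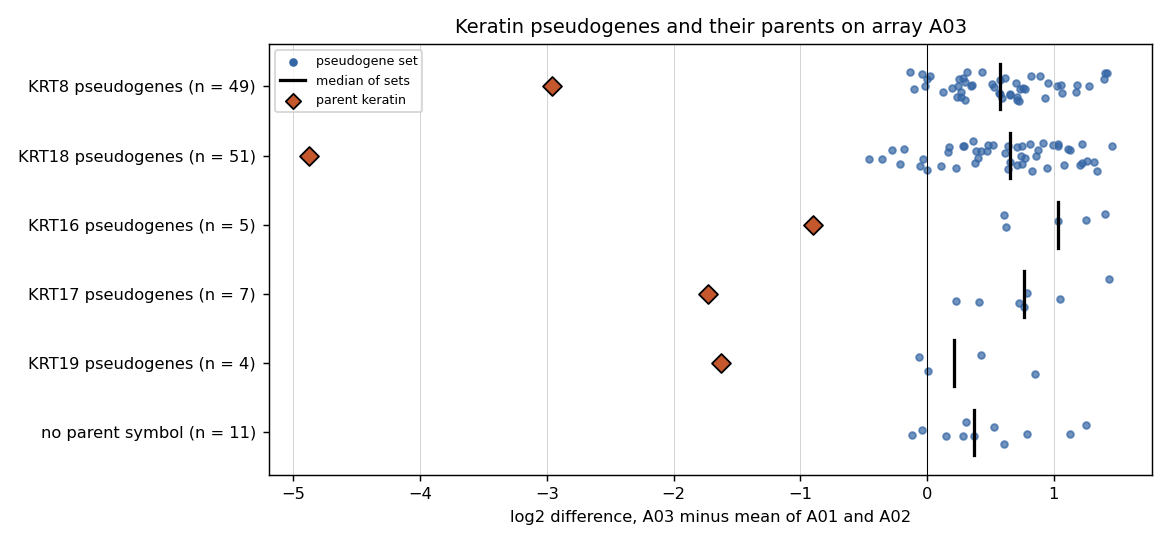
Difference of array A03 from the mean of A01 and A02 in log2 units for every keratin pseudogene set (points), the family median (bar) and the parent keratin (diamond); vertical scatter within a row has no meaning. The family medians lie between 0.21 and 1.03, and the parents lie between -4.88 and -0.90.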

How the data were processed

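The authors deposited RMA log2 values (background correction, quantile normalization, summarisation; packages affy and oligo per the methods) for 6 Clariom D arrays. The genome build and package versions are not given in the sources used here. The line of each column was taken from its letter, which the study's principal component plot assigns. Controls (2995 of 138745 rows) set the limit of detection or were left out. Sets with a mean over 5 arrays above the median (1.88) and an SD above the lowest 25% (0.18) entered the fit (R 4.3.3; limma 3.58.1, functions lmFit and eBayes), and Benjamini-Hochberg adjusted values were called at 5%. The fit gave every tested set a common SD of 0.34, so calls followed the size of the change and not each set's own spread. It was tested on simulated data. Members, lists and tests were chosen with earlier results of these data known. Named were the 30 brightest members above the limit of detection and their largest changes, those past 5%, those beside the limit, parents, and other keratins past 5%; any other gene named, flanking genes and other families included, was chosen after its values were seen. RefSeq (GRCh38.p14) matched all 124 symbols and gave names and gene order. Replicates' separate cultures are not described, so the spread may be technical, and the number of arrays limits precision. Sequence likeness was not analysed here. Alternatives changed filters, scaling, variance model and arrays.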

Additional observations from a re-analysis of the deposited data

Results flagged for a closer look

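A signal appeared on A03, an array that entered the fit only as an alternative. There, 102 of 127 keratin pseudogene sets read higher than on both A01 and A02 (80.3%). The share was 57.8% over all transcript sets and 73.7% over the other pseudogene sets, so higher values were not particular to keratin pseudogenes. In all 96 other families with 10 or more sets, the pseudogene median was higher on A03 than the mean of A01 and A02. What part the quality of that array has in this was not tested.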

How the results depend on the processing

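Over all tested sets the calls numbered 620, against 26 with A03 added back and 1377 with the trend option. The count of members past 5% was 10. It was 4 with A03 added back and 20 with the trend option, and 8 to 13 under the 6 other settings of filter, weights and scaling and 8 to 11 with 1 array left out. The median change over all members (0.44) was 0.24 with A03 added back, 0.30 with values under the limit of detection raised to it, and 0.40 to 0.48 with 1 array left out. The share of members with the direction of the parent (90.5%) was 76.7% with A03 added back, 72.4% with values raised to the limit, and 87.1% to 88.8% with 1 array left out. The 72.4% is 84 of 116 sets. It counts as not following the parent 27 sets that were under the limit on all 5 arrays and so had no change once raised to it. Counting identical sets once, chosen after seeing the data, gave 0.43 and 90.4%. With A03 added back KRT8P30 turned to -0.12, KRT18P56 to -0.065 and KRT18P68 to -0.050, and KRT17P4 ranged from -0.32 without A01 to 0.11 without A02; the cause was not tested. For 45 named sets (33 of members, the others of keratins), 45 values under an alternative lost a call, and none of these changed sign. Each parent has a single set, so a mean over its sets gives the same value. No paired analysis was possible because the array columns carry no replicate number of the labels. Levels near the negative controls limit what the dim sets can show, all 4 KRT19 pseudogenes included.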
